A study of Mus musculus with 6 samples.

Results

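The 5 somatostatin receptor genes, Sstr1 to Sstr5, and the genes of 3 further receptors that slow insulin release, Adra2a, Galr1 and Npy1r, were followed across 3 cell populations that had been sorted from the islets of adult mice. These 8 genes were taken by their symbols, and all 8 were found among the 46959 genes of the table. RNA sequencing had been done on 6 libraries, 2 for each population, from islets of mice carrying both an Ins1-H2b-mCherry and a Ucn3-eGFP transgene. Immature beta cells were positive for mCherry alone, mature beta cells were positive for both reporters, and double negative cells carried neither and stand for the non-beta cells of the same islets. All 3 populations therefore share both transgenes, and islets had been cultured overnight at 5.5 mM glucose with 10% serum before dissociation and sorting. The mCherry reporter is driven by the Ins1 promoter and the eGFP reporter by that of Ucn3, the gene of the peptide urocortin 3, and each library is a pool of islets from several mice, given as 10 to 12 in the design text.

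Somatostatin, released by delta cells, restrains its neighbours in the islet through receptors that couple to inhibitory G proteins. Such receptors lower cyclic AMP, open inwardly rectifying potassium channels and reduce calcium entry, and thereby slow the release of insulin from beta cells and of glucagon from alpha cells. The alpha-2A adrenergic receptor encoded by Adra2a does this in response to adrenaline and noradrenaline, the galanin receptor encoded by Galr1 in response to the neuropeptide galanin, and the Y1 receptor encoded by Npy1r in response to neuropeptide Y and peptide YY.

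The sorted populations differed in more than their beta cell content. Depth, recovered from the steps of the RPKM values (reads scaled by gene length and library size), was 2393835 and 3448911 reads in the immature libraries, against 22063895 to 26824354 in the other 4. Summed RPKM of 10 beta cell markers was 73001 and 78143 in immature, 246868 and 263659 in mature and 4717 and 7031 in double negative libraries. The 10 alpha cell markers summed to 29262 and 19935 RPKM in immature, 701 and 907 RPKM in mature and 178481 and 172038 RPKM in double negative libraries, and the 6 delta cell markers to 3385 and 3701, 221 and 338, and 20373 and 21918 RPKM in the same order of groups. The immature libraries held the highest sums of 9 endothelial markers (832 and 780 RPKM, against 3.54 to 204 RPKM in the other 4) and of 9 immune markers (1672 and 1721 RPKM, against 3.81 to 30.6 RPKM), and 10 acinar markers summed to 9236 and 28861 RPKM there, against 128 to 2214 RPKM in the other 4. The 3 pancreatic polypeptide (PP) cell markers summed to 7367 and 8615 RPKM in immature, 176 and 160 RPKM in mature and 19204 and 20495 RPKM in double negative libraries. The 8 mesenchymal markers summed to 141 and 98.3, 0.44 and 0.49, and 22.4 and 27.9 RPKM in the same order. Of these lists, Amy2a5 (acinar) was listed at 0 in every library and Ptf1a (acinar) in double negative replicate 1. Ptprc (immune) and Acta2 (mesenchymal) were at 0 in mature replicate 1, and Tyrobp (immune) and Lum (mesenchymal) in mature replicate 2. Replicate 1 of each population is labelled male and replicate 2 female, yet the design text names females. The X-inactivation transcript Xist was at 36.5 to 129 RPKM in the 3 libraries labelled male. The Y-linked gene Ddx3y was at 0 to 0.161 RPKM in those libraries. Where the label is female, Xist ranged from 21.4 to 108 RPKM and Ddx3y from 0.042 to 1.23 RPKM, the latter highest in immature replicate 2. Eif2s3y, also Y-linked, reached 2.23 RPKM in that library, against 0.1 RPKM in immature replicate 1. The origin of these Y-linked reads was not tested. In these bulk libraries fewer cells of a type and less RNA per cell cannot be told apart.

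Sequences upstream of the start are shown for Sstr2 and Sstr3, which lay on opposite sides of the mature against double negative comparison. RefSeq promoter windows (GRCm38.p6) were at hand for 5 of the 8 genes, with 2 separate starts for Sstr3. Each sequence below runs 5′ to 3′ on the strand of its gene, from 250 bases before the start to 30 bases from it. Capitals mark matches to 6 short motifs searched on both strands. These were GGGCGG (GC box), TGACGTCA (cyclic AMP response element), TGCTGA (MAF motif), TAATTA (homeodomain), TGTTTAC (forkhead) and CAGATG (E-box). The Sstr2 window is chr11:113619077-113619356 on the plus strand, and the Sstr3 window, at the downstream of its 2 starts, is chr15:78541377-78541656 on the minus strand.
Sstr2: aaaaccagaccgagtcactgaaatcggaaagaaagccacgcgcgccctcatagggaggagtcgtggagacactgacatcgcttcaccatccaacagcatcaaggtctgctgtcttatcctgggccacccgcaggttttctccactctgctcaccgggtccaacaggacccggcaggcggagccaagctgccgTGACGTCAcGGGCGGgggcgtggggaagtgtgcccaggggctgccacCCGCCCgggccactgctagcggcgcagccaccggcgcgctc
Sstr3: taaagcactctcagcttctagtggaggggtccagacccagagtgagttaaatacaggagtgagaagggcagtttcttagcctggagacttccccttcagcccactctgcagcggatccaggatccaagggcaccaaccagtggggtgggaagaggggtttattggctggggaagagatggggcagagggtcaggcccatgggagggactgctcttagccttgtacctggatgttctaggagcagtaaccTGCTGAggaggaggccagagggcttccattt

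The Sstr2 window held a cyclic AMP response element, a motif present in 1.8% of 32851 promoter windows of the same build, and 2 GC boxes, a motif present in 35.7%. The Sstr3 window held a MAF motif across its start (19.5% of windows) and no match to the others. In the full windows of 300 bases, Sstr2 had 27 CpG dinucleotides and 66.3% GC, this Sstr3 start 1 CpG and 57.3% GC, and the upstream Sstr3 start 10 CpG and 58.7% GC, against a median of 7 CpG and 52.7% GC over all windows. The Adra2a window had 28 CpG, 68.7% GC and 1 GC box. It is chr19:54045009-54045308 and lay wholly inside the only annotated exon of the gene, so that its letters are transcribed sequence in that annotation. The bases before the upstream Sstr3 start also overlapped an annotated exon. These matches describe the letters only.

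Sstr3 was the leading somatostatin receptor gene of all 3 populations, Sstr1 and Sstr2 stayed under 0.2 RPKM in mature libraries, and Sstr4 and Sstr5 had at most 5 reads in any library. Adra2a and Galr1 were highest in mature cells, intermediate in immature cells and lowest in double negative cells. Of the 8 genes, 5 reached 1 RPKM in at least 2 of the 6 libraries and were tested, among 13367 genes, with limma on log2(RPKM + 1) and a Benjamini-Hochberg adjusted p under 0.05. Sstr1 and Sstr2 entered through the immature and double negative libraries alone and Galr1 through the immature and mature ones, so that the counts of called genes below carry no weight as a group. In immature against mature cells 2 of the 5 tested genes were higher and 3 lower, where 65.3% of all tested genes were called (49.8% higher and 15.5% lower). In mature against double negative cells 3 were higher and 2 lower, with 54.3% of all genes called (23.1% higher and 31.2% lower). In immature against double negative cells 2 were higher and 3 lower, with 56.6% called (45.9% higher and 10.6% lower). In these 3 comparisons the median log2 difference was -0.61, 0.43 and -0.18 over the 5 receptor genes and 0.29, -0.08 and 0.24 over all tested genes, and the comparisons share libraries.

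**Figure D1:**
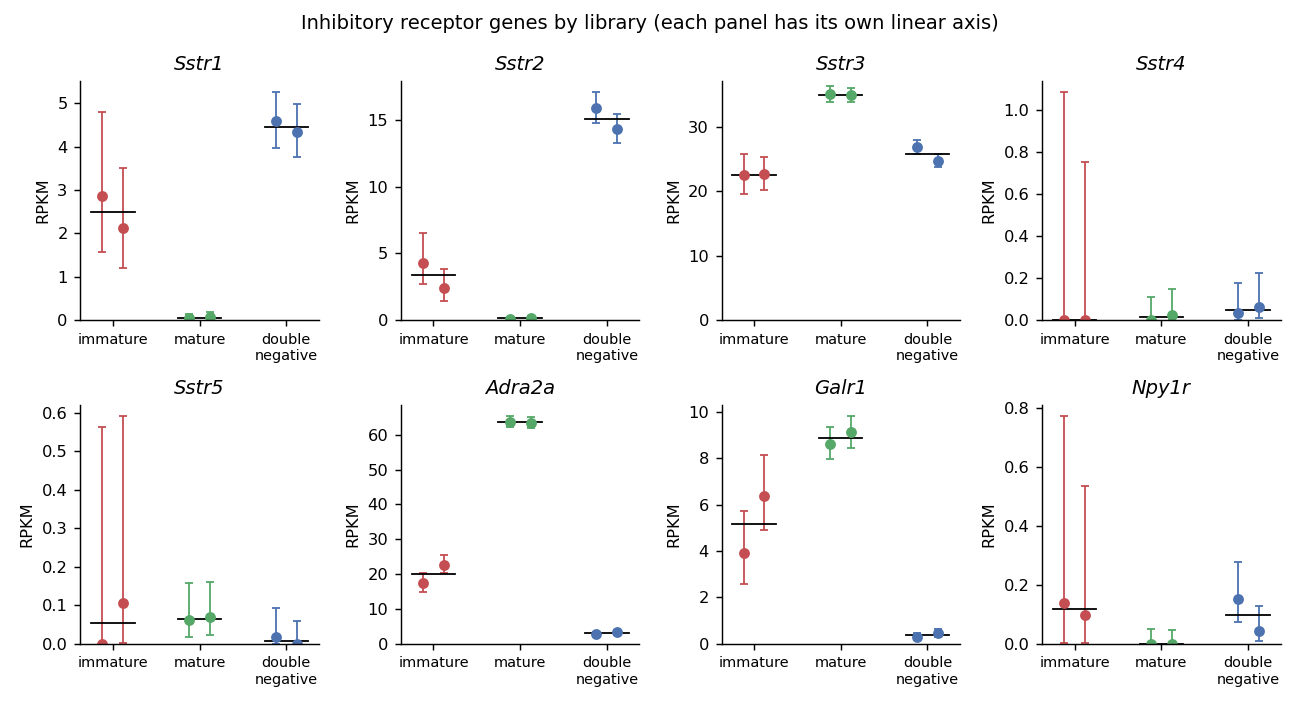
RPKM (linear y axis, separate for each panel) of the 8 receptor genes in immature, mature and double negative libraries (x axis). Points are libraries, bars through points are exact Poisson 95% intervals of the reads, and black lines are group means. Adra2a stands at 63.8 and 63.4 RPKM in mature libraries, above all others, and the 6 libraries of Sstr4, Sstr5 and Npy1r all lie below 0.2 RPKM.

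Sstr3 encodes the somatostatin receptor that is found on the primary cilium of beta cells, and it was the only one of the 5 above 0.2 RPKM in mature cells. Sstr3 (ENSMUSG00000044933.3, chromosome 15, 78537008 to 78544685, minus strand, GRCm38) measured 22.4 and 22.7 RPKM in immature, 35.0 and 34.9 RPKM in mature and 26.9 and 24.7 RPKM in double negative libraries. Those values rest on 211 and 307, 3262 and 3677, and 2328 and 2206 reads. The RPKM values of the 3 groups did not overlap, and the immature libraries were the lowest. The share of all tested genes with groups apart in this way was not counted, here or for the genes below. Poisson intervals of both immature libraries (up to 25.7 and 25.3 RPKM) overlapped that of double negative replicate 2 (from 23.7 RPKM).

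The mean of Sstr3 was 22.6 ± 0.157 RPKM for immature cells, against 35.0 ± 0.082 RPKM for mature cells (SD, n = 2 each), a log2 difference of -0.61 (SE 0.06, limma adjusted p = 0.000289). It was higher in mature than in double negative cells by 0.43 (SE 0.06, limma adjusted p = 0.00157). Against double negative cells, which averaged 25.8 ± 1.52 RPKM (SD, n = 2), immature cells were lower by a log2 difference of -0.18 (SE 0.06, limma adjusted p = 0.0369). This last call was lost in 8 of 15 alternative analyses, among them the fits without immature replicate 1 (adjusted p = 0.0606), without either mature library (adjusted p = 0.0979 for both) and without double negative replicate 1 (adjusted p = 0.156), all with limma. The size of the difference between immature and double negative cells also moved with scaling. It was -0.43 under median-ratio rescaling (limma adjusted p = 0.00252) and -0.48 under quantile normalization (limma adjusted p = 0.00147). Sstr3 ranked first of the 8 genes in double negative cells and second to Adra2a in mature cells. In immature cells it shared the top with Adra2a, whose 2 libraries (17.5 and 22.7 RPKM) spanned the Sstr3 values.

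Sstr2 encodes the receptor through which somatostatin inhibits alpha cells, and its values followed the double negative population. Sstr2 (ENSMUSG00000047904.6, chromosome 11, 113619342 to 113626028, plus strand) measured 4.29 and 2.44 RPKM in immature, 0.0787 and 0.174 RPKM in mature and 15.9 and 14.3 RPKM in double negative libraries. The groups did not overlap, and the mature values rest on 4 and 10 reads. Counted over reads, Sstr2 was 24.7 times as high in immature as in mature cells (counting interval 13.2 to 49.2), and in mature cells it stood at 0.00857 of the double negative level (0.00467 to 0.0144). On the log2(RPKM + 1) scale, which understates the change of low genes, immature cells lay 1.92 above mature cells (SE 0.21, limma adjusted p = 0.00047) and fell by 1.92 against double negative cells (SE 0.21, limma adjusted p = 0.000708). The difference of mature from double negative cells was -3.84 (SE 0.21, limma adjusted p = 4.31e-05), and 54 of the 13367 tested genes had a lower one.

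Sstr1 showed the same order of groups as Sstr2. Sstr1 (ENSMUSG00000035431.4, chromosome 12, 58211772 to 58214444, plus strand) encodes a somatostatin receptor of neural and endocrine cells and measured 2.86 and 2.13 RPKM in immature, 0.0412 and 0.0729 RPKM in mature and 4.59 and 4.34 RPKM in double negative libraries. The RPKM values of the groups did not overlap, with 14 and 15 reads in immature and 2 and 4 reads in mature libraries. The Poisson interval of immature replicate 1 (up to 4.80 RPKM) overlapped those of both double negative libraries (from 3.98 and 3.76 RPKM). Counted over reads, the immature level was 41.8 times the mature level (counting interval 17.1 to 123.2). The log2 difference was 1.72 for immature against mature cells (SE 0.13, limma adjusted p = 0.000109) and -2.37 for mature against double negative cells (SE 0.13, limma adjusted p = 4.16e-05). Immature cells differed from double negative cells by -0.65 (SE 0.13, limma adjusted p = 0.00657), a call that was lost without double negative replicate 1 (limma adjusted p = 0.0536).

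Sstr1 and Sstr2 stood in different proportion in the populations where both were detected. The ratio of Sstr1 to Sstr2 RPKM was 0.667 and 0.873 in immature libraries, against 0.289 and 0.304 in double negative libraries. Counting intervals were wide in the immature libraries (0.315 to 1.36 and 0.41 to 1.83) and narrow in the double negative ones (0.246 to 0.337 and 0.258 to 0.356), so that immature replicate 1 overlapped both double negative libraries within counting error and immature replicate 2 overlapped neither. In mature libraries, with 2 and 4 reads of Sstr1, the ratio was 0.524 and 0.419 and could not be resolved from either (0.0474 to 3.65 and 0.0959 to 1.45). These intervals are exact Clopper-Pearson limits of the share of reads, turned into ratios.

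Sstr4 and Sstr5, the remaining somatostatin receptor genes, did not pass the filter on low values. Sstr5 (ENSMUSG00000050824.12, chromosome 17) encodes a receptor known from beta cells and from pituitary and measured 0 and 0.106 RPKM in immature, 0.0617 and 0.0682 RPKM in mature and 0.0166 and 0 RPKM in double negative libraries. That is 0 and 1, 4 and 5, and 1 and 0 reads, and 3 reads in an immature library would have given 0.459 and 0.318 RPKM. Expression of Sstr5 at the mature level was therefore not detectable in the immature libraries at this depth. Sstr4 (ENSMUSG00000037014.4, chromosome 2), mainly known from brain, had no read in either immature library, 0 and 1 reads in the mature and 1 and 2 reads in the double negative libraries.

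Together the 5 somatostatin receptor genes summed to 29.6 and 27.3 RPKM in immature, 35.2 and 35.2 RPKM in mature and 47.4 and 43.4 RPKM in double negative libraries. Sstr3 made up 75.8% and 82.9% of that sum in immature, 99.5% and 99.0% in mature and 56.7% and 56.9% in double negative libraries. Sstr2 contributed 14.5% and 8.91%, 0.22% and 0.49%, and 33.5% and 33.0% in the same order. Sstr1 made up 9.66% and 7.78%, 0.12% and 0.21%, and 9.68% and 10.0%. The order of levels was Sstr3, Sstr2, Sstr1, Adra2a and Galr1 in double negative libraries, without overlap, whereas Galr1, Sstr2 and Sstr1 overlapped in the immature libraries.

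**Figure D2:**
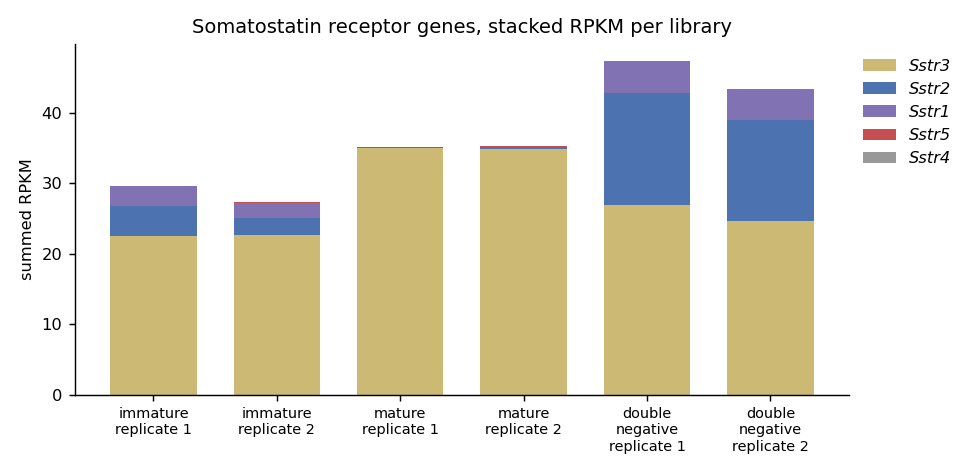
Summed RPKM (y axis, from 0) of the somatostatin receptor genes in each of the 6 libraries (x axis), with each gene's RPKM as a stacked segment. The sum is 47.4 and 43.4 RPKM in double negative libraries, with Sstr2 and Sstr1 as visible segments, and the mature bars, at 35.2 RPKM each, are almost wholly Sstr3.

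Adra2a was the highest of the 8 genes in mature cells and lower in both other populations. Adra2a (ENSMUSG00000033717.6, chromosome 19, 54044151 to 54048982, plus strand) measured 17.5 and 22.7 RPKM in immature, 63.8 and 63.4 RPKM in mature and 2.91 and 3.46 RPKM in double negative libraries. The groups did not overlap, and the lowest library had 159 reads. Its mean was 20.1 ± 3.72 RPKM for immature cells, against 63.6 ± 0.25 RPKM for mature cells (SD, n = 2 each), a log2 difference of -1.63 (SE 0.13, limma adjusted p = 0.000151). Only 62 of 13367 tested genes had a lower difference. Adra2a was higher in mature than in double negative cells by 3.95 (SE 0.13, limma adjusted p = 1e-05), where 19 genes had a higher difference, and higher in immature than in double negative cells by 2.33 (SE 0.13, limma adjusted p = 7.17e-05).

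Galr1 followed the same order of groups at a lower level. Galr1 (ENSMUSG00000024553.8, chromosome 18, 82392380 to 82406777, minus strand) measured 3.93 and 6.36 RPKM in immature, 8.64 and 9.13 RPKM in mature and 0.284 and 0.444 RPKM in double negative libraries. The RPKM values of the groups did not overlap, and the immature values rest on 27 and 63 reads. The Poisson interval of immature replicate 2 (up to 8.14 RPKM) overlapped that of mature replicate 1 (from 7.95 RPKM). The difference of immature from mature cells was -0.71 (SE 0.19, limma adjusted p = 0.0194), a call that was lost with limma without mature replicate 1 (adjusted p = 0.0704), without mature replicate 2 (adjusted p = 0.0939) and with no filter on low values (adjusted p = 0.0609). The difference was also smaller without immature replicate 1 (-0.42) than without immature replicate 2 (-1.003). Galr1 was higher in mature than in double negative cells by 2.86 (SE 0.19, limma adjusted p = 0.000101) and in immature than in double negative cells by 2.15 (SE 0.19, limma adjusted p = 0.000377).

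Npy1r did not pass the filter. Npy1r (ENSMUSG00000036437.6, chromosome 8, 66697192 to 66706792, plus strand) had 1 read in each immature library, 0 reads in both mature libraries and 10 and 3 reads in the double negative libraries, which is 0.139 and 0.0964, 0 and 0, and 0.151 and 0.0439 RPKM. Its read counts are less certain than the others, since 13 gene lengths gave whole reads and 1 was taken. Finding 0 reads in the mature libraries allows up to 0.0421 and 0.0372 RPKM there, taken as 3 reads, and the upper exact Poisson limits were 0.0517 and 0.0457 RPKM. The lower double negative library lay within those Poisson limits.

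**Figure D3:**
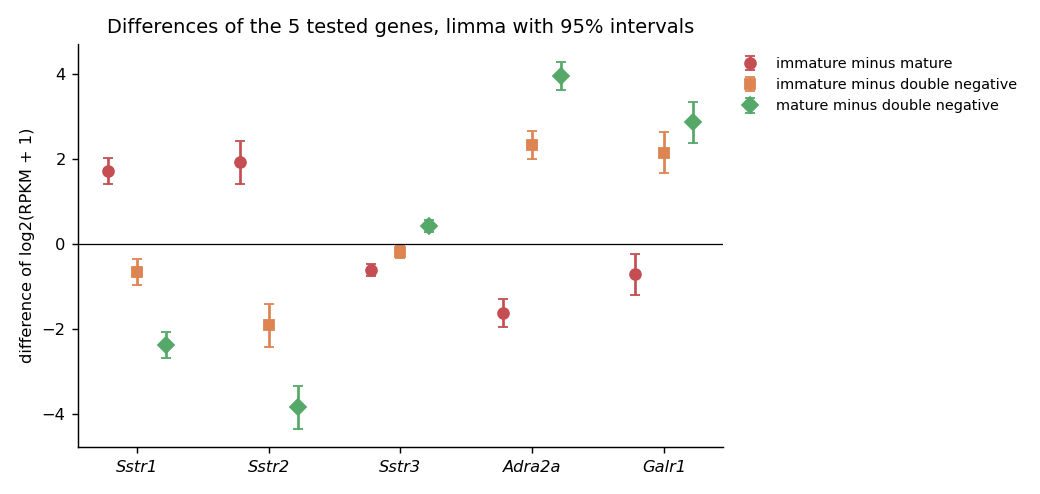
Differences of log2(RPKM + 1) (y axis) of the 5 tested genes (x axis) for immature minus mature, immature minus double negative and mature minus double negative cells. Points are limma estimates and bars their 95% intervals, from 2 libraries a group. Sstr1 and Sstr2 are positive only for immature minus mature (1.72 and 1.92), and Adra2a and Galr1 are negative only there (-1.63 and -0.71).

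Ratios between Adra2a, Sstr3 and Galr1 also differed between the populations. Adra2a over Sstr3 was 0.779 and 1.003 in immature, 1.82 and 1.82 in mature and 0.108 and 0.14 in double negative libraries, and no counting interval of a group reached into another group. Galr1 over Adra2a was 0.225 and 0.28 in immature, against 0.135 and 0.144 in mature libraries. Its intervals were 0.144 to 0.34 and 0.21 to 0.368 in immature, and 0.124 to 0.147 and 0.133 to 0.156 in mature libraries, so that the first immature library touched the mature range. In double negative libraries this ratio was 0.0977 and 0.128 (0.0569 to 0.158 and 0.0845 to 0.188).

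The immature libraries were placed between the other populations by setting the mature mean at 0% and the double negative mean at 100% of their RPKM difference. Adra2a lay at 76.3% and 67.6%, beside Ins1 at 75.9% and 72.9%, Ins2 at 73.5% and 71.0% and Ucn3 at 80.4% and 68.2%. Galr1 lay at 58.2% and 29.6%. The other beta cell markers were not placed, and Ins1 and Ucn3 are the genes whose promoters drive the reporters. Across all 10 beta cell markers, the log2 difference of immature from mature cells ran from -2.397 (Mafa) to -0.67 (Nkx6-1), with Pdx1 at -0.77. Adra2a (-1.63) and Galr1 (-0.71) both fell between these. Among genes of the double negative side, Sstr2 lay at 27.8% and 15.4% and Sstr1 at 63.6% and 46.9%, where the alpha cell gene Gcg (glucagon) lay at 16.2% and 10.9%, and the delta cell genes Sst (somatostatin) and Hhex (a delta cell transcription factor) at 14.5% and 16.2% and at 32.0% and 31.6%. Sstr3 lay outside the range, at 136.5% and 134.0%. Median-ratio rescaling moved the means over both immature libraries to 78.4% for Adra2a, 55.7% for Galr1, 17.9% for Sstr2, 46.0% for Sstr1 and 163.3% for Sstr3. The contribution of alpha, delta, PP, endothelial, immune, mesenchymal and acinar RNA in these values was not tested.

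**Figure D4:**
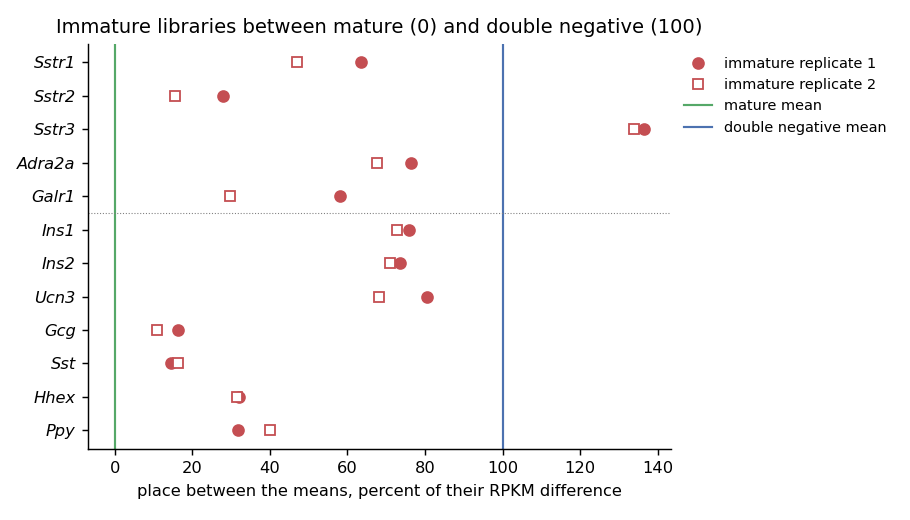
Place of each immature library (filled and open points) between the mature mean (0) and the double negative mean (100), in percent of their RPKM difference (x axis), for the 5 tested receptor genes above the dotted line and 7 hormone and marker genes below it. Adra2a lies beside Ins1, Ins2 and Ucn3, the only beta cell markers shown, near 75%. Sstr1 lies at 63.6% and 46.9%, and Sstr3 lies beyond 100%.

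Genes whose values over the 6 libraries were most like those of each receptor gene were sought among 8709 genes, by Pearson's r of log2(RPKM + 1), which the 3 group levels dominate. For Adra2a these were Cpeb1, Entpd3 and Gng12 (r = 0.9997, 0.9997 and 0.9996), the last of which encodes a G protein gamma subunit. For Galr1 they were Cntfr, Fkbp1b and Tspan15 (r = 0.9993, 0.9991 and 0.9989). For Sstr2 they were Peg10, Sfrp5 and Ugt8a (r = 0.9989, 0.9988 and 0.9988), and for Sstr3 they were Dap, Ndrg3 and Slc6a17 (r = 0.9989, 0.9984 and 0.9979). Between the receptor genes themselves, r was 0.981 for Adra2a with Galr1, 0.968 for Sstr1 with Sstr2 and -0.993 for Sstr2 with Adra2a. Sstr1 stayed under 5 RPKM in every group and was left out of that search.

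Ligand genes of these receptors were also measured. The counts of this and the following lists stand against 49.8% higher and 15.5% lower calls over all tested genes in immature against mature cells. The shares were 23.1% and 31.2% in mature against double negative cells, and 45.9% and 10.6% in immature against double negative cells. Median-ratio rescaling left 4662 of the 13367 genes higher and 4077 lower in immature against mature cells, and quantile normalization left 3361 and 5350. In immature against double negative cells these counts were 3888 and 2925, and 2912 and 4428. Some listed genes passed the filter through a single population, as Kcnj5 did through the mature and Adcy7 through the immature libraries. Their direction against the other populations was thus fixed, and the list counts carry no weight as a group. Of 6 tested ligand genes, 4 were higher and 2 lower in immature than in mature cells (median log2 difference 3.13). Sst, the ligand of the Sstr genes, stood at 3214 and 3543 RPKM in immature, 211 and 327 RPKM in mature and 19746 and 21309 RPKM in double negative libraries, higher by 3.68 in immature than in mature cells (SE 0.20, limma adjusted p = 3.61e-05). Gal, which encodes the Galr1 ligand galanin, measured 8.21 and 11.8 RPKM in immature, 0.947 and 0.681 RPKM in mature and 18.1 and 15.5 RPKM in double negative libraries, the opposite order to that of Galr1. The Y receptor ligands Pyy and Ppy rose by 5.67 and 5.54 in immature against mature cells, while Npy, a further Y receptor ligand, fell to 21.4 and 36.9 RPKM in immature libraries, against 105.9 and 112.2 RPKM in mature libraries (log2 difference -1.92, SE 0.29, limma adjusted p = 0.00186). Th, which makes the catecholamine precursor, was also lower in immature cells by a difference of -0.65, and Dbh, the enzyme that makes noradrenaline from dopamine, had no more than 0.016 RPKM in any library.

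The inhibitory G protein alpha subunit genes divided. In immature against mature cells 2 of 5 were higher, 1 lower and 2 did not pass, and the count was 2 higher, 2 lower and 1 not passed in mature against double negative cells and again in immature against double negative cells. Gnai1 measured 16.5 and 12.5 RPKM in immature, 1.01 and 1.14 RPKM in mature and 33.0 and 33.6 RPKM in double negative libraries, the order seen for Sstr1 and Sstr2, and its difference of immature from mature cells was 2.89 (SE 0.13, limma adjusted p = 1.58e-05). Gnai3 went the other way, at 57.2 and 57.9 RPKM in immature, 78.7 and 74.4 RPKM in mature and 38.9 and 42.6 RPKM in double negative libraries (difference of immature from mature cells -0.40, SE 0.06, limma adjusted p = 0.00199). Gnai2 was the most abundant at 108.8 RPKM or more in every library, and its difference of -0.15 between immature and mature cells had a limma adjusted p = 0.132, and under median-ratio rescaling it was called lower at -0.47 (limma adjusted p = 0.00481). Gnao1 differed by 0.19, a value that turned to -0.13 under median-ratio rescaling. That rescaling left 1 gene higher and 3 lower in immature against mature cells.

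Effector genes also moved in both directions. Of the genes for G protein-gated potassium channels, 3 of 4 were tested, and in immature against mature cells 1 was higher, 1 lower and 1 did not pass. Kcnj5 measured 0.279 and 0.387 RPKM in immature, 2.10 and 1.97 RPKM in mature and 0.121 and 0.068 RPKM in double negative libraries (difference of immature from mature cells -1.19, SE 0.11, limma adjusted p = 0.000225). Kcnj3 measured 1.44 and 0.945, 0.008 and 0.021, and 3.29 and 3.27 RPKM in the same order (difference 1.10, SE 0.13, limma adjusted p = 0.000748). Kcnj6 measured 2.45 to 4.09 RPKM across the 6 libraries, with a difference of -0.03 between immature and mature cells (limma adjusted p = 0.806). It was called lower there under median-ratio rescaling (-0.26, limma adjusted p = 0.0423) and quantile normalization (-0.77, limma adjusted p = 0.00108). Of the channel genes 1 was higher and 2 lower in mature against double negative cells, and in immature against double negative cells 0 were higher and 2 lower. Among 10 tested beta and gamma subunit genes 5 were higher, 3 lower and 2 did not pass in immature against mature cells, with Gng11 up by 4.59, Gng2 up by 2.09, Gnb4 up by 1.54 and Gng4 down by a difference of -1.15, and the rise of Gnb1 turned sign under median-ratio rescaling, which left 3 higher and 4 lower. In mature against double negative cells 3 were higher and 5 lower, and in immature against double negative cells 4 were higher and 3 lower, where the rise of Gnb4 turned sign under quantile normalization. Of 6 adenylyl cyclase genes, which make the cyclic AMP that these receptors lower, 5 were higher and 1 lower in immature against mature cells. Quantile normalization left 4 higher and 2 lower. In mature against double negative cells 1 was higher and 4 lower, and in immature against double negative cells 2 were higher and 1 lower. Adcy4 rose by 3.42, Adcy7 by 2.71, Adcy6 by 1.33 and Adcy5 by 0.64, while the rise of Adcy3 by 0.41 turned sign under quantile normalization. Endothelial and immune marker sums were higher in the same immature libraries, and their part in these rises was not tested.

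Kinases and arrestins that desensitize receptors were followed as a list. Of 6 tested kinase and arrestin genes 5 were higher in immature than in mature cells and none lower, with Arrb1 up by 1.79, Arrb2 by 1.68, Grk6 by 0.81 and Grk5 by 0.61. Both rescalings left 4 higher and 1 lower, and the rise of Grk5 was lost under quantile normalization (0.16, limma adjusted p = 0.27). In mature against double negative cells 2 were higher and 3 lower, and in immature against double negative cells 5 were higher and none lower, where the rise of Grk6 turned sign under quantile normalization. Of 7 tested alpha subunit genes of the other classes 4 were higher and none lower, with Gna12 up by 0.86, Gnas by 0.66 and Gna13 by 0.50, and the rise of Gnaq by 0.28 turned sign under median-ratio rescaling. That rescaling left 3 higher and 2 lower, quantile normalization left 2 higher and 2 lower, and quantile normalization also lost the rise of Gnas (0.23, limma adjusted p = 0.133). None was higher and 2 were lower in mature against double negative cells, and in immature against double negative cells 2 were higher and 2 lower. The list of primary cilium genes, from the organelle where the Sstr3 protein resides, had 15 tested members. Of these, 5 were higher, 2 lower and 8 did not pass in immature against mature cells, 4 were higher and 3 lower in mature against double negative cells, and 4 were higher and 1 lower in immature against double negative cells. Gpr161, a receptor gene of the cilium, was lower in immature than in mature cells by a difference of -0.49 and Bbs2, a gene of ciliary receptor transport, was higher by 0.45. None of the 5 cilium rises between immature and mature cells was called under median-ratio rescaling (7 lower) or quantile normalization (9 lower). Inpp5e, Arl13b, Tulp3 and Adcy3 did not keep their sign under quantile normalization. Over all 13367 tested genes the lower calls there also went from 2073 to 4077 and 5350 under these rescalings. The 4 rises in immature against double negative cells became 1 under median-ratio rescaling and 0 under quantile normalization, with 2 and 7 lower. In that comparison both rescalings also left 1 ligand gene higher in place of 2, 1 inhibitory alpha subunit gene in place of 2, 1 alpha subunit gene of the other classes in place of 2 and 2 beta and gamma subunit genes in place of 4.

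Most other receptor genes that couple to inhibitory G proteins were too low to test. Of 47 such genes listed, 45 were present and 13 were tested, and in immature against mature cells 8 were higher, 3 lower and 2 did not pass (median log2 difference 0.66). S1pr1, a sphingosine phosphate receptor abundant in endothelium, measured 87.6 and 83.6 RPKM in immature, 0.332 and 0.159 RPKM in mature and 19.7 and 23.1 RPKM in double negative libraries, and rose by 6.12 in immature against mature cells. Ptger3, a prostaglandin receptor gene, and P2ry13, an ADP receptor gene, rose by 1.70 and 1.41, and the rise of Cnr1, a cannabinoid receptor gene, turned sign under quantile normalization, which left 5 higher and 5 lower. Ptger3, P2ry13 and Cnr1 passed the filter through the immature libraries alone, which fixed their direction in the deposited values. Hcar2, the niacin receptor gene, was lower at 9.74 and 10.1 RPKM in immature, against 29.5 and 27.7 RPKM in mature libraries (difference -1.44, SE 0.07, limma adjusted p = 1.72e-05). Of the genes most closely related to the 8, Adra2b and Adra2c stayed at or under 0.084 RPKM and Galr2 measured 0.354 to 1.19 RPKM, with a difference of -0.21 between immature and mature cells (limma adjusted p = 0.464). Under quantile normalization Galr2 was called lower there, at -0.9 (limma adjusted p = 0.00622). In mature against double negative cells 4 of the 13 were higher and 6 lower, and in immature against double negative cells 7 were higher and 2 lower.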

How the data were processed

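The authors deposited 1 table of RPKM values, a column for each library, from TruSeq libraries per the labels' protocols. Per the submitters' processing notes, STAR 2.5, featureCounts, edgeR 3.14.0 and GRCm38.p4 were used, with no roles named. The annotation, and how multiply mapped reads were handled, is not given in what was used here. In RPKM, genes with a large share lower the rest, and Gcg took 40.3% and 38.9% of summed RPKM in double negative libraries. In mature libraries Ins2 took 33.2% and 34.8% and Ins1 9.8% and 10.1%. In immature libraries these shares were 12.0% and 12.4% for Ins2 and 3.2% and 3.4% for Ins1.

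Reads were recovered from RPKM steps with GENCODE M21 lengths (GRCm38). Within 0.02 reads, 78.1% to 83.8% of values under 200 reads were whole. For Sstr3, Adra2a, Galr1 and Npy1r a length that gave whole reads was searched, and 1, 2, 1 and 13 lengths did. Exact Poisson and Clopper-Pearson intervals (95%) and floors of 3 reads cover counting error only.

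Genes of at least 1 RPKM in 2 libraries were fitted as log2(RPKM + 1) in limma 3.58.1 (R 4.3.3), 1 mean per group, trended prior, 3 residual degrees of freedom, two-sided, Benjamini-Hochberg adjusted over 13367 genes. Spread is pooled, although replicates differed by an SD of 0.393 (immature), 0.132 (mature) and 0.222 (double negative). No source states that pools were independent, so p-values measure the spread between these libraries, which may be technical. Receptor genes, lists and motifs were chosen with earlier results of these data known. From each list up to 4 called genes with the largest difference between immature and mature cells are named. Npy, Th, Dbh, Gnai2, Gnb1, Kcnj6, Adcy3, Tulp3, Cnr1, Adra2b, Adra2c and Galr2 were added after their values were seen. Alternatives were another pseudocount, other filters, median-ratio and quantile scaling, no trend, only the libraries compared, voom on recovered reads, a replicate block and leaving out each library.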

Additional observations from a re-analysis of the deposited data

How the results depend on the processing

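The 15 differences of the 5 tested receptor genes were recomputed under 228 alternatives in all: 216 kept direction and call, 12 lost the call and 0 reversed. The 12 losses fell on Sstr3 in immature against double negative cells (8, highest adjusted p = 0.156), Galr1 in immature against mature cells (3, highest adjusted p = 0.0939) and Sstr1 in immature against double negative cells (1, adjusted p = 0.0536), and their cause was not tested. Without a trend the Sstr3 value had adjusted p = 0.0722, with only the 4 libraries compared 0.102, with voom at the searched length 0.108 and with the replicate block 0.0604, all in limma; the block changed no other call of a receptor gene. The main fit did not pair libraries by number, since the labels do not say that same-numbered libraries share a pool. Correlations of same-numbered deviations were -0.009, 0.14 and -0.112 for the 3 pairs of groups. With only 2 libraries a group these values cannot settle whether pools were shared. Replicate number goes with the labelled sex in every group, and sex was not in the main fit. The filter at 5 RPKM dropped Sstr1, which left 1 receptor gene higher in immature than in mature cells and 1 lower in mature than in double negative cells. Leaving out 1 library each left 1 to 3 receptor genes lower in immature than in double negative cells.

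Low genes depend most on the scale: Sstr1 differed between immature and mature cells by 1.72 at a pseudocount of 1, 4.04 at 0.1 and 5.25 with voom. A second voom run, with all 8 genes at the searched lengths, was added after seeing the data. Counts over all genes moved with scaling. For immature against mature cells 6655 higher and 2073 lower became 4662 and 4077 under median-ratio rescaling, and 3361 and 5350 under quantile normalization. In the same comparison 4118 were higher at 5 RPKM, and 1206 (1209 with all receptor genes) were lower with voom. For immature against double negative cells 6142 higher and 1421 lower became 3888 and 2925 under median-ratio rescaling, 2912 and 4428 under quantile normalization, and 796 lower with voom in both versions. Those scalings took the median over all genes to 0.03 and -0.16, against 0.29 as deposited, in the first comparison and to 0.02 and -0.12, against 0.24, in the second, and the share of calls that were higher from 76.2% to 53.3% and 38.6% and from 81.2% to 57.1% and 39.7%. Leaving out 1 library, the lower calls ranged from 1321 to 2454 in immature against mature and from 837 to 1894 in immature against double negative cells, and the calls in mature against double negative cells from 2028 to 3765 higher and 2629 to 5217 lower. The immature libraries limit depth: 3 reads there are worth 0.221 to 0.880 RPKM for the 8 genes, against at most 0.0955 RPKM elsewhere.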
